A study of Arabidopsis thaliana with 8 samples.

Results

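The starch metabolism genes BAM5, BAM3, GBSS1 and GPT2 were followed across 4 genotypes of Arabidopsis thaliana shoots. They are 4 probe sets out of the 22747 rows of the deposited array table, given there as 245275_AT for BAM5, 245346_AT for BAM3, 261191_AT for GBSS1 and 264400_AT for GPT2. BAM5 was chosen by its change in lhp1-4 over wild type, which was among the largest rises, and the other three were chosen as genes of the same metabolism with results of these arrays already known. The table pairs no probe set with a gene, so the gene names are those given with the choice of members and were not checked against an array annotation. In the RefSeq gene table for TAIR10.1 they correspond to the loci AT4G15210 (BAM5), AT4G17090 (BAM3), AT1G32900 (GBSS1) and AT1G61800 (GPT2). The symbol BAM3 belongs to 2 genes of that table, the other being a receptor kinase, and the starch gene was taken.

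The plants were accession Columbia (Col-0), 18 days old and untreated, from a greenhouse kept at 20 °C with 35% humidity and 18 h of light a day. The genotypes were lhp1-4 bpc4 bpc6, called the triple mutant here, bpc4 bpc6, lhp1-4 and wild type, with 2 arrays each, and every array held RNA from a pool of 6 plants. LHP1 reads Polycomb marks on chromatin through its chromodomain and takes part in gene silencing. BPC4 and BPC6 belong to the BASIC PENTACYSTEINE family, plant factors that recognise GAGA repeats in DNA. The hour of harvest is not given in the sources used here, nor is whether the pools of a genotype were grown apart, so p-values measure only the spread between these pools. Whole shoots were used, so fewer cells of a type and less RNA per cell cannot be told apart. Transcripts of the mutated genes and markers of shoot tissues were not analysed here, because the table does not pair probe sets with genes.

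Leaf starch is made in chloroplasts by day and broken down at night. Granule-bound starch synthase, encoded by GBSS1, makes amylose inside the growing granule. Beta-amylases release maltose from glucan chains, and BAM3 is a chloroplast beta-amylase with a main part in nightly starch breakdown in leaves. BAM5 is a beta-amylase found outside the chloroplast, mainly in phloem, and its transcript is known to be induced by sugars. GPT2 carries glucose 6-phosphate across the plastid envelope in exchange for phosphate, and its transcript is known to be induced by sugars and by a shift to brighter light.

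Values are RMA intensities on a linear scale, with those stored divided by 1000 brought back to scale. The 8 arrays had median intensities between 54.7 and 58.3, and replicates correlated at 0.993 to 0.997 over 22716 probe sets. Intensities of different probe sets are not on a common scale, so levels are compared between genotypes and not between genes. All 6 mutant arrays lay above both wild type arrays for each of the 4 genes, an order of arrays that 6.92% of all probe sets had. For BAM5 part of that order came with its choice, and the other genes were chosen with results known, so the share is a description. By geometric mean the genes differed in which mutant stood highest. BAM5 was highest in the genotypes with lhp1-4, and BAM3, GBSS1 and GPT2 were highest in bpc4 bpc6. At a limma adjusted p under 0.05, bpc4 bpc6 stood above another mutant only for GBSS1, against the triple mutant.

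**Figure D1:**
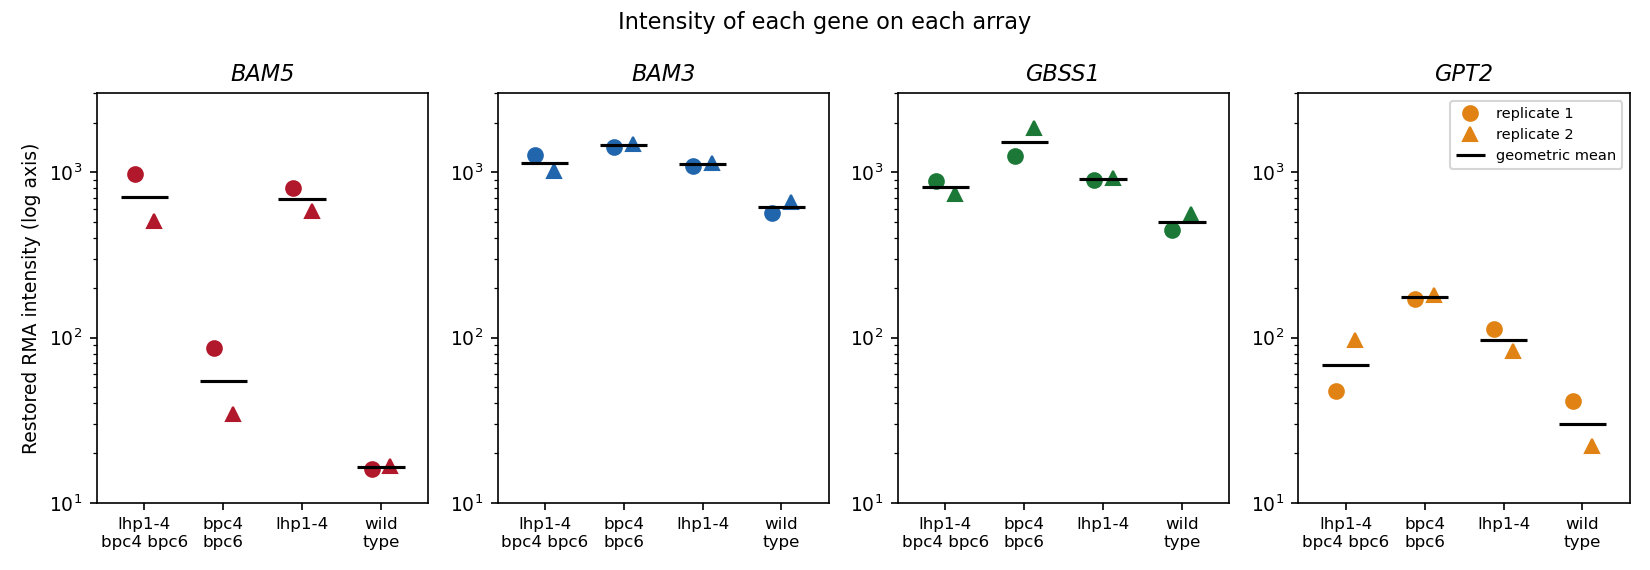
Intensity of BAM5, BAM3, GBSS1 and GPT2 on each of the 8 arrays, on a log axis, with circles for replicate 1, triangles for replicate 2 and a bar at the geometric mean of each genotype (n = 2). BAM5 stood at 506 to 981 on the 4 arrays with lhp1-4 and at 16.1 to 86.3 on the others, while the other three genes peaked in bpc4 bpc6; the order of BAM3 and GBSS1 rests on the restored scale, and levels of different genes are not comparable.

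BAM5 had intensities of 981 and 506 in the triple mutant, 86.3 and 34.5 in bpc4 bpc6, 804 and 584 in lhp1-4 and 16.1 and 16.8 in wild type. All 4 arrays with lhp1-4 lay above both bpc4 bpc6 arrays, and these lay above both wild type arrays, with no overlap except between the triple mutant and lhp1-4 arrays. This order was found in 2.23% of all probe sets. It contains the rise in lhp1-4 over wild type that chose BAM5, so the share is a description only. No BAM5 value had been scaled in storage, so its directions do not rest on the restored scale.

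The comparison that chose BAM5 is described without a test. In lhp1-4 over wild type its log2 change was 5.38, a ratio of 41.7, the second largest of 22716. The probe sets next to it in that order had changes of 5.73 above and 5.05 below. The wild type BAM5 values of 16.1 and 16.8 lay below the median intensities of their arrays, 54.7 and 54.8. How far the ratio depends on this dim baseline was not tested. In the same comparison GPT2 had a log2 change of 1.68, GBSS1 of 0.87 and BAM3 of 0.86. The direction of BAM3 rests on the restored scale, with a log2 change of -9.11 as deposited. For each of the 4 genes both lhp1-4 arrays lay above both wild type arrays, which 20.8% of probe sets shared, and 3.53% of probe sets were called higher at a limma adjusted p under 0.05.

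The effect of lhp1-4 was then measured on arrays that the choice of BAM5 had not used, by comparing the triple mutant with bpc4 bpc6. BAM5 rose in the triple mutant, with a log2 change of 3.69 ± 0.46 (SE, 2 arrays each; limma adjusted p = 0.00233). The ratio was 12.9, with a 95% interval from 6.01 to 27.7; intervals here are not adjusted for the number of probe sets. Both triple mutant arrays lay above both bpc4 bpc6 arrays, as in 23.4% of probe sets. Of all probe sets 10.5% were called higher in this comparison, and 0.141% had a larger log2 change than BAM5. The SE, interval and p-value of BAM5 above draw on the spread of all genotypes, among them those that chose BAM5. With only bpc4 bpc6 and the triple mutant in the model, its log2 change was 3.69 ± 0.55 (SE, limma adjusted p = 0.0226). The call was thus kept with a larger SE and a higher adjusted p. Without any single array the BAM5 change stayed between 3.03 and 4.35. Wherever an array of a compared genotype is left out, the array that remains is assumed to vary like the other genotypes.

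The other three genes did not share this rise where BPC4 and BPC6 were lost. GBSS1 had intensities of 891 and 740 in the triple mutant, against 1254 and 1860 in bpc4 bpc6. Both triple mutant arrays lay below both bpc4 bpc6 arrays, as in 36.6% of probe sets. GBSS1 fell by 0.91 on the log2 scale (SE 0.21, 2 arrays each, limma adjusted p = 0.0215). The background in this direction was 10.9% of probe sets called lower. The call was lost without triple mutant replicate 2, where the log2 change was -0.78 (limma adjusted p = 0.105), without bpc4 bpc6 replicate 2, where it was -0.63 (adjusted p = 0.0828), and when the model held bpc4 bpc6 and the triple mutant alone (adjusted p = 0.0674). As deposited, before both bpc4 bpc6 values were scaled, the GBSS1 change had the opposite sign.

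GPT2 had intensities of 47.8 and 97.3 in the triple mutant, against 172 and 182 in bpc4 bpc6. The triple mutant arrays lay below both bpc4 bpc6 arrays but differed from each other by a ratio of 2.04. The log2 change was -1.38 ± 0.40 (SE, 2 arrays each; limma adjusted p = 0.0501), just above the threshold and so not called, with a ratio of 0.385 and a 95% interval from 0.200 to 0.740. It passed the threshold in some alternatives, among them without triple mutant replicate 2, where the log2 change was -1.89 (limma adjusted p = 0.0281), and without either wild type array (adjusted p = 0.0432). BAM3 had 1268 and 1024 in the triple mutant, against 1426 and 1493 in bpc4 bpc6. Its log2 change of -0.36 ± 0.13 did not pass (SE, 2 arrays each; limma adjusted p = 0.105), although the arrays did not overlap, as in 36.6% of probe sets in this direction.

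With LHP1 present, GPT2, GBSS1 and BAM3 were called higher in bpc4 bpc6 than in wild type. The calls were lost with only these genotypes in the model. GPT2 had intensities of 172 and 182 in bpc4 bpc6, against 41.2 and 22.1 in wild type. GPT2 rose by a log2 change of 2.55 ± 0.40 (SE, 2 arrays each; limma adjusted p = 0.0377), a ratio of 5.87 with a 95% interval from 3.05 to 11.3. That was the fifth largest change of 22716 in this comparison. Both wild type values of GPT2 lay below the median intensities of their arrays, 54.7 and 54.8.

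GBSS1 had 1254 and 1860 in bpc4 bpc6, against 445 and 557 in wild type. It rose by a log2 change of 1.62 ± 0.21 (SE, 2 arrays each; limma adjusted p = 0.0227), a ratio of 3.07 with a 95% interval from 2.19 to 4.31. BAM3 had 1426 and 1493 in bpc4 bpc6, against 568 and 664 in wild type. It rose by a log2 change of 1.25 ± 0.13 (limma adjusted p = 0.0156), a ratio of 2.38 with a 95% interval from 1.92 to 2.95. The granule synthase and the leaf beta-amylase thus moved the same way. Both directions rest on the restored scale, since the bpc4 bpc6 values of each gene had been stored divided by 1000 and the wild type values had not.

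All 3 genes tested in this comparison were called higher, against 0.964% of all probe sets. Their arrays did not overlap, as in 18.5% of probe sets in this direction. The 3 genes were chosen with results of these arrays already known, so their count against these shares is a description only. BAM5 was not tested here, because the wild type arrays had been used to choose it. Its log2 change was 1.73 ± 0.46, a ratio of 3.32, and was 1.07 without bpc4 bpc6 replicate 1 and 2.39 without bpc4 bpc6 replicate 2.

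These calls did not hold in every model. With bpc4 bpc6 and wild type alone in the model limma called 0 of 22716 probe sets, with 3139 at an unadjusted p under 0.05, and the adjusted p was 0.108 for BAM3, 0.143 for GBSS1 and 0.12 for GPT2. Without single arrays the adjusted p reached 0.0751 for BAM3 (without bpc4 bpc6 replicate 2), 0.102 for GBSS1 (without wild type replicate 1) and 0.13 for GPT2 (without bpc4 bpc6 replicate 2). Calls were lost without either lhp1-4 array, wild type replicate 1 or bpc4 bpc6 replicate 2 for BAM3, GBSS1 and GPT2 alike, without bpc4 bpc6 replicate 1 for BAM3 and GPT2, and without wild type replicate 2 for GPT2, while log2 changes stayed between 1.14 and 1.36 for BAM3, 1.33 and 1.90 for GBSS1 and 2.104 and 3.00 for GPT2.

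**Figure D2:**
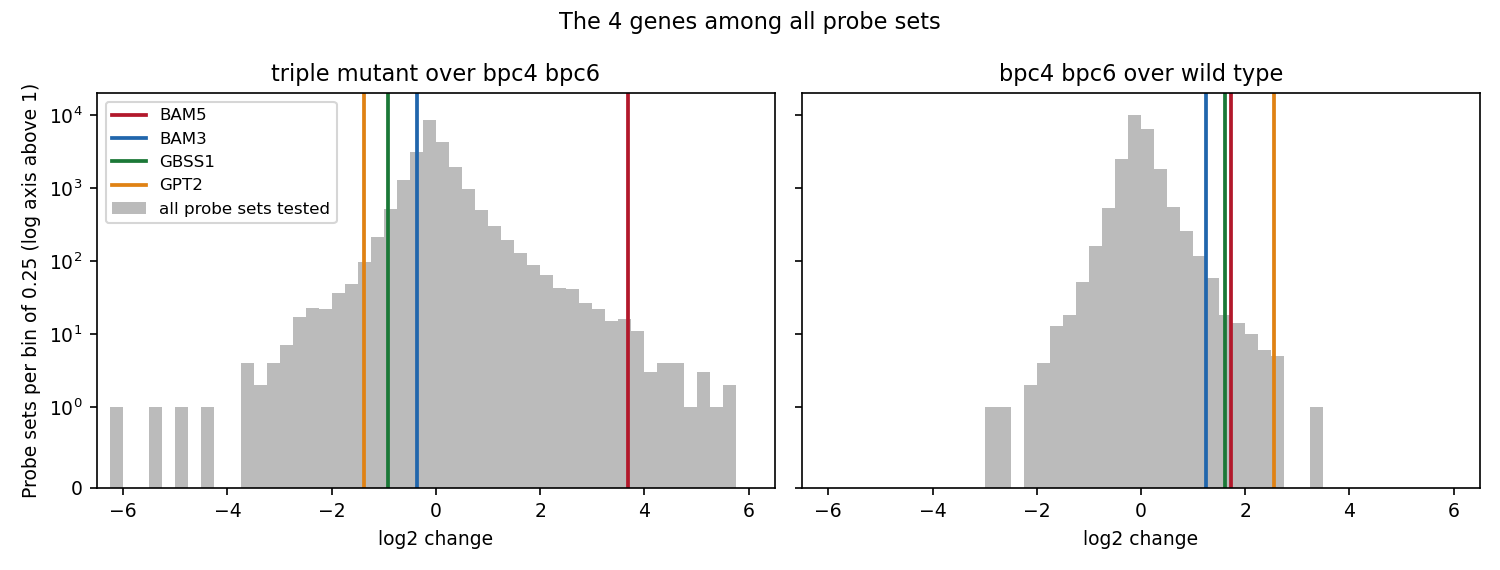
Number of probe sets by log2 change (bins of 0.25, log axis above 1) for the triple mutant over bpc4 bpc6 and for bpc4 bpc6 over wild type, with a line at the change of each of the 4 genes. On the restored scale, all 4 genes lay in the upper tail in bpc4 bpc6 over wild type, from 1.25 for BAM3 to 2.55 for GPT2. On that scale BAM5 lay at 3.69 in the triple mutant over bpc4 bpc6, and BAM3, GBSS1 and GPT2 below 0. As deposited, BAM3 and GBSS1 lay below 0 in bpc4 bpc6 over wild type. GBSS1 as deposited lay above 0 in the triple mutant over bpc4 bpc6.

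When lhp1-4 was already present, loss of BPC4 and BPC6 changed none of the 3 genes tested at a limma adjusted p under 0.05, a threshold that 3.31% of probe sets passed. BAM3 had 1268 and 1024 in the triple mutant, against 1092 and 1139 in lhp1-4, and its log2 change was 0.03, with a 95% interval from -0.28 to 0.34. GBSS1 had 891 and 740 in the triple mutant, against 893 and 922 in lhp1-4, and its log2 change was -0.16, with an interval from -0.65 to 0.33. GPT2 had 47.8 and 97.3 in the triple mutant, against 113 and 82.4 in lhp1-4, and its log2 change was -0.50, with an interval from -1.44 to 0.44. The arrays overlapped for BAM3 and GPT2, while both GBSS1 arrays of the triple mutant lay below both of lhp1-4, as in 25.3% of probe sets. Unadjusted limma p-values were 0.82 for BAM3, 0.462 for GBSS1 and 0.248 for GPT2. Without triple mutant replicate 1 the log2 change was -0.12 for BAM3 and 0.0119 for GPT2. For BAM5, not tested here, the log2 change was 0.04 ± 0.46.

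Whether the bpc4 bpc6 effect differed with the lhp1-4 background was tested by limma's interaction term, which is the log2 change of the triple mutant over lhp1-4 minus that of bpc4 bpc6 over wild type. It was negative for GPT2, at -3.05 ± 0.56 (SE, 2 arrays each; limma adjusted p = 0.0465), for GBSS1, at -1.78 ± 0.29 (adjusted p = 0.0338), and for BAM3, at -1.22 ± 0.19 (adjusted p = 0.0273). As deposited, before scaling, BAM3 gave 8.75 and GBSS1 gave 8.19, so both signs rest on the restored scale. Of all probe sets 0.792% were called negative. BAM3, GBSS1 and GPT2 were chosen with results of these arrays already known, so their calls against this share are a description only. Only 6 probe sets had a lower interaction value than GPT2. BAM5 had a value of -1.69 ± 0.66, which was not tested because it contains the arrays that chose the gene, and which was -1.03 without bpc4 bpc6 replicate 1 and -2.35 without bpc4 bpc6 replicate 2.

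The interaction calls were lost without most single arrays: BAM3 kept its call without triple mutant replicate 1 or wild type replicate 2, GBSS1 without bpc4 bpc6 replicate 1 and GPT2 without triple mutant replicate 2. Over the 8 arrays left out in turn, the adjusted p ran from 0.0426 to 0.135 for BAM3, from 0.0272 to 0.147 for GBSS1 and from 0.0451 to 0.171 for GPT2, and the values stayed negative throughout. With the replicate number as a block the GPT2 value had an adjusted p of 0.0632.

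**Figure D3:**
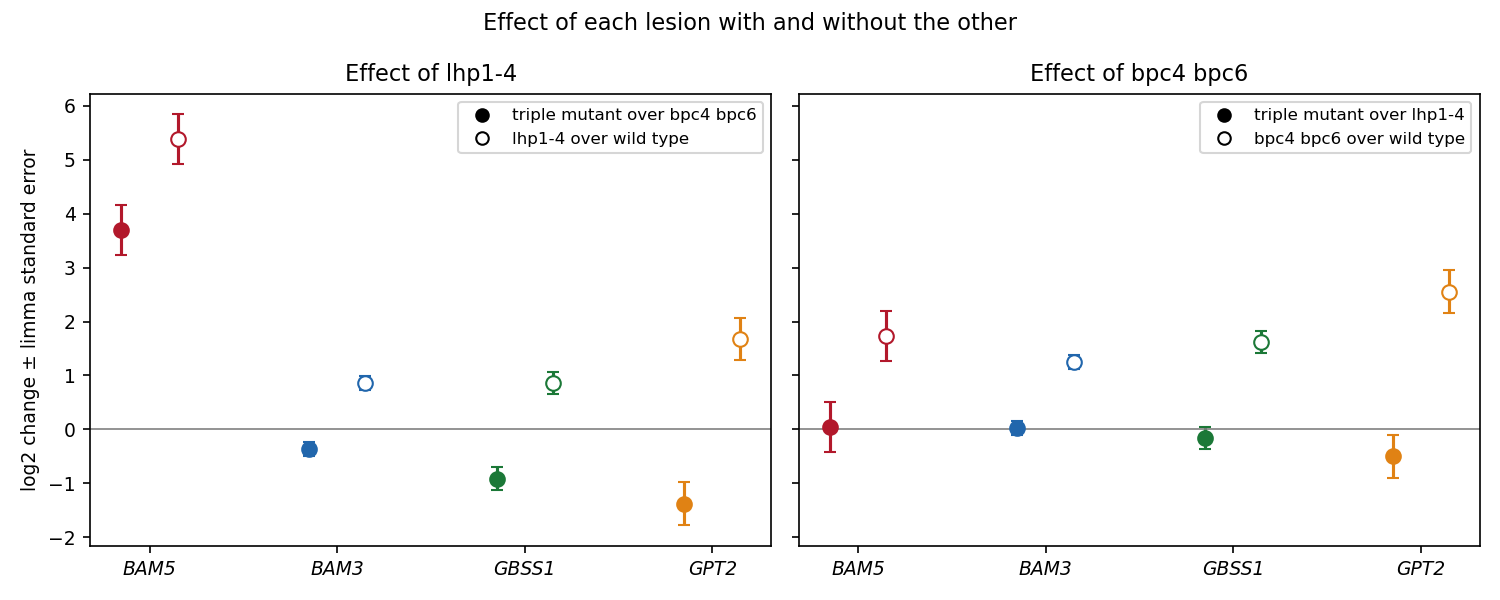
Log2 change ± standard error for the effect of lhp1-4 (left) and of bpc4 bpc6 (right), each in the background that carries the other lesion (filled) and in the one that does not (open); n = 2 arrays per genotype. On the restored scale the filled bpc4 bpc6 effects lay between -0.50 and 0.04 and the open ones between 1.25 and 2.55; as deposited, those open effects of BAM3 and GBSS1 and the open lhp1-4 effect of BAM3 were negative, and the filled lhp1-4 effect of GBSS1 was positive. The open lhp1-4 effects include the one that chose BAM5.

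In the triple mutant all 4 genes lay above wild type on both arrays, and BAM3, GBSS1 and GPT2 lay below their bpc4 bpc6 levels. BAM3 had 1268 and 1024 in the triple mutant, against 568 and 664 in wild type, and rose by a log2 change of 0.89 ± 0.13 (SE, 2 arrays each; limma adjusted p = 0.00404), with the opposite sign as deposited. GBSS1 had 891 and 740, against 445 and 557, and rose by 0.71 ± 0.21 (adjusted p = 0.0492). GPT2 had 47.8 and 97.3, against 41.2 and 22.1, and its change of 1.18 ± 0.40 did not pass (adjusted p = 0.0769). For BAM5 the log2 change was 5.42 ± 0.46, with no test. Of all probe sets 11.5% were called higher, and in 22.5% both triple mutant arrays lay above both wild type arrays, as they did for the 4 genes.

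The GBSS1 call over wild type lay at the threshold: the adjusted p was 0.0581 to 0.212 without either triple mutant, lhp1-4 or wild type array, 0.0589 with each array centred on its median and 0.0552 after quantile normalization. GPT2 passed without triple mutant replicate 1, where its log2 change was 1.69 (limma adjusted p = 0.0345).

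Ordered by geometric mean, BAM5 stood at 705 in the triple mutant, 685 in lhp1-4, 54.6 in bpc4 bpc6 and 16.4 in wild type. Triple mutant and lhp1-4 arrays overlapped, and the other neighbours did not. BAM3 stood at 1459 in bpc4 bpc6, 1139 in the triple mutant, 1115 in lhp1-4 and 614 in wild type. Neither bpc4 bpc6 and the triple mutant nor the triple mutant and lhp1-4 differed at an adjusted p under 0.05.

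GBSS1 stood at 1527 in bpc4 bpc6, 907 in lhp1-4, 812 in the triple mutant, with wild type at 498. GPT2 stood at 177 in bpc4 bpc6, 96.5 in lhp1-4, 68.2 in the triple mutant, with wild type at 30.2. The comparison of bpc4 bpc6 over lhp1-4 was added after the values were seen. In it GBSS1 had a log2 change of 0.75 ± 0.21 on the restored scale (SE, 2 arrays each, limma adjusted p = 0.0885). GPT2 had a change of 0.88 ± 0.40 (limma adjusted p = 0.279) and BAM3 one of 0.39 ± 0.13 (adjusted p = 0.149). In this comparison 2.56% of probe sets were called higher. Without bpc4 bpc6 replicate 1 the GBSS1 change was 1.04 and passed (limma adjusted p = 0.0448).

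BAM3, GBSS1 and GPT2 shared an order of arrays that the choice of members did not name: both bpc4 bpc6 arrays lay above the other 6, and both wild type arrays lay below the other 6. Of all probe sets 101, or 0.445%, had that order of arrays. It was noticed in these values and is given as a description. BAM5 did not have it.

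Replicates of BAM5 and GPT2 lay far apart in some genotypes. The pooled replicate SD on the log2 scale was 0.60 for BAM5 and 0.51 for GPT2, against a median of 0.13 over all probe sets, and 99.2% of probe sets had a smaller one than BAM5 and 98.7% a smaller one than GPT2. It was 0.25 for GBSS1 and 0.14 for BAM3. The pools did not deviate alike: in the triple mutant BAM5 was higher in replicate 1, by a ratio of 1.94, and GPT2 was higher in replicate 2, by a ratio of 2.04. In bpc4 bpc6 BAM5 was again higher in replicate 1, at 86.3 against 34.5, and GPT2 differed by a ratio of 1.06. In wild type the replicates differed by a ratio of 1.04 for BAM5 and 1.86 for GPT2, and in lhp1-4 by 1.38 and 1.37. The limma model gives each probe set a single spread for all genotypes, and whether the spread was equal was not tested.

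Likeness to each gene was measured by Pearson's r of log2 intensities over the 8 arrays, among 4088 other probe sets with a log2 range of at least 1. The 8 arrays are 4 genotypes in duplicate, so r mostly reflects the 4 genotype levels, and it is given as a description. The 5 probe sets most like BAM5 had r from 0.985 to 0.996, and 265 had r over 0.9. The closest was 247529_AT, at geometric means of 156 in the triple mutant, 86.0 in bpc4 bpc6, 150 in lhp1-4 and 61.1 in wild type. It was followed by 245422_AT, at 235 in the triple mutant, 36.7 in bpc4 bpc6, 217 in lhp1-4 and 12.3 in wild type. Both followed the order of BAM5 over the genotypes, with a smaller span.

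The other three genes had fewer close profiles. The 3 probe sets most like BAM3 had r from 0.946 to 0.978, those most like GBSS1 from 0.944 to 0.977 and those most like GPT2 from 0.932 to 0.952. There were 23 probe sets with r over 0.9 for BAM3, 25 for GBSS1 and 7 for GPT2. Among the 4 genes, r was 0.93 between BAM3 and GBSS1, 0.825 between GBSS1 and GPT2 and 0.80 between BAM3 and GPT2. With BAM5 it was 0.507 for BAM3, 0.28 for GPT2 and 0.204 for GBSS1.

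**Figure D4:**
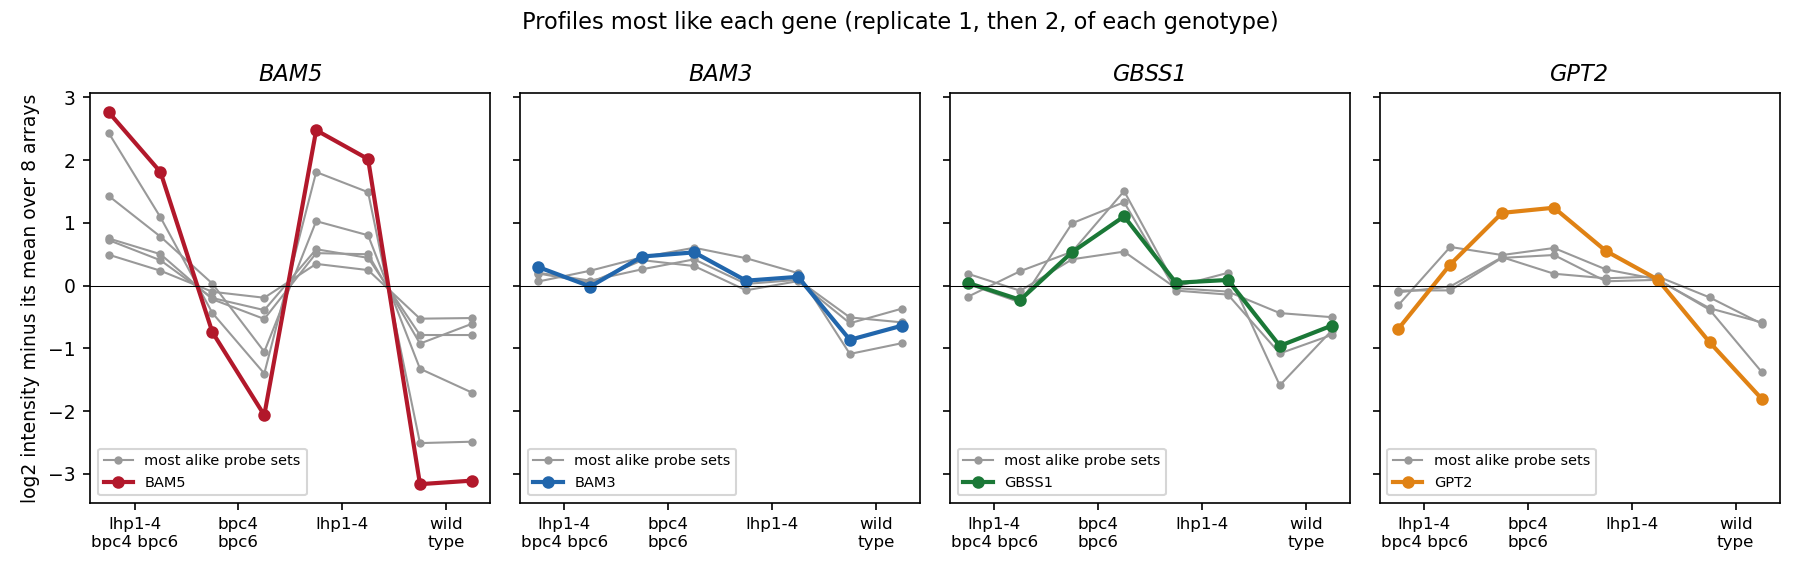
Log2 intensity minus its mean over the 8 arrays, for each of the 4 genes (coloured) and the probe sets most like it (grey, 5 for BAM5 and 3 for each other gene), with replicates 1 and 2 of each genotype side by side. BAM5 was higher on the 4 arrays with lhp1-4 than on the others, while BAM3, GBSS1 and GPT2 were highest in bpc4 bpc6 and lowest in wild type on the restored scale.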

How the data were processed

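Each deposited value is an intensity of 1 probe set on 1 array, made by the authors with RMA per the submitters' processing notes. The RMA version is not stated there. Deposited values ran from 1 to 999.7, and it was inferred from them that any intensity reaching 1000 had been divided by 1000 before storage. Values under 3 were multiplied by 1000, as were longer-written values of 10 to 100, and values of 3 to 10 were read by their closeness to settled values of the same probe set. Among the members this scaled all BAM3 values outside wild type and both GBSS1 values of bpc4 bpc6. The table had 22747 rows, of which 1 control and 30 undecided probe sets were left out and 22716 were tested. Of these, 5007 had an open level: all their values lay between 3 and 10 and were kept as deposited. Any of them stored divided by 1000 would count as dim in array medians, quantile normalization and the filter for brighter probe sets. Scanner files were not used here.

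Log2 intensities were fitted in limma (version 3.58.1, R version 4.3.3) by genotype means, all 8 arrays together (4 residual degrees of freedom, 2.85 from moderation). P-values were adjusted by Benjamini-Hochberg within each comparison over all 22716 probe sets and called under 0.05. No member was tested in lhp1-4 over wild type, and BAM5 was tested only in the triple mutant over bpc4 bpc6. That log2 change uses other arrays, but its SE and p-value share the spread of all 8. The model was checked on simulated data in which only the triple mutant was changed. Each probe set had the same spread in all genotypes there, and the interaction was not checked. No filter on dim values was set. Precision is limited by the number of arrays.

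Members and gene lists were chosen with earlier results of these data known. Genes to be named were the 4 members, called genes of fixed lists for starch breakdown, starch synthesis and plastid transport, the mutated genes, and the 5 probe sets most like BAM5 and 3 most like each other member. The lists and cell type markers were fixed by locus and could not be matched to probe sets, so they were not analysed here, nor were promoter motifs. Only the first 2 of the alike probe sets are printed. Alternatives were other scalings, filters, models and a replicate block, and each array left out in turn.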

Additional observations from a re-analysis of the deposited data

Results flagged for a closer look

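For 3 genes the effect of losing BPC4 and BPC6 differed between the background with lhp1-4 and the one without it, by limma's interaction test on the log2 scale with 2 arrays per genotype. These genes were chosen with results of these arrays already known. They were read on the same 8 arrays, so their calls are not independent of one another. The interaction was -1.22 for BAM3 (limma adjusted p = 0.0273), -1.78 for GBSS1 (adjusted p = 0.0338) and -3.05 for GPT2 (adjusted p = 0.0465). For GPT2 the effect was -0.50 in the lhp1-4 background and 2.55 with LHP1 present, for GBSS1 -0.16 and 1.62, and for BAM3 0.03 and 1.25. The signs of BAM3 and GBSS1 rest on the restored scale. With each of the 8 arrays left out in turn, the call held in 2 fits for BAM3, 1 for GBSS1 and 1 for GPT2, and with the replicate block GPT2 was not called (limma adjusted p = 0.0632). No group had enough arrays for a search for single arrays that stand apart.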

How the results depend on the processing

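Of 149 member values with a test recomputed under alternatives other than leaving out arrays, 120 kept their direction and side of the threshold, 15 lost a call, 7 gained it and 7 reversed. All 7 reversals came from the values as deposited, where values of 1000 or more stand divided by 1000: BAM3 gave -8.72 in bpc4 bpc6 over wild type, -9.07 in the triple mutant over wild type and 8.75 in the interaction, and GBSS1 gave -8.35 in bpc4 bpc6 over wild type, 9.05 in the triple mutant over bpc4 bpc6, 8.19 in the interaction and -9.21 in bpc4 bpc6 over lhp1-4. The untested BAM3 change in lhp1-4 over wild type was -9.11 there. For GPT2 in bpc4 bpc6 over wild type the call was lost at 2.55 as deposited (limma adjusted p = 0.0618), 2.51 after quantile normalization (0.0531), 2.55 with array weights (0.0554) and 2.55 with only the genotypes compared (0.12), where BAM3 at 1.25 (0.108) and GBSS1 at 1.62 (0.143) lost it too. For GBSS1 in the triple mutant over wild type it was lost at 0.71 as deposited (0.0757), 0.64 with centring on the median (0.0589), 0.70 after quantile normalization (0.0552), 0.71 with only the genotypes compared (0.0537) and 0.71 with array weights (0.108). GBSS1 in the triple mutant over bpc4 bpc6 lost it at -0.91 with only the genotypes compared (0.0674). The GPT2 interaction lost it at -3.05 as deposited (0.073), -3.02 after quantile normalization (0.0688) and -3.05 with the replicate block (0.0632). GPT2 gained a call at 1.18 in the triple mutant over wild type with brighter probe sets alone (0.0263), and in the triple mutant over bpc4 bpc6 at -1.41 with centring (0.0332) and at -1.38 with brighter probe sets alone (0.0142), array weights (0.0397) and a mean-variance trend (0.033). GBSS1 in bpc4 bpc6 over lhp1-4 gained it with brighter probe sets alone (0.0355) and array weights (0.0377). The cause of the shifts other than those as deposited was not tested.

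Over the 8 arrays left out in turn, which also costs a degree of freedom, 102 of 152 tested values kept direction and side. In bpc4 bpc6 over wild type log2 changes ran from 1.14 to 1.36 for BAM3, 1.33 to 1.90 for GBSS1 and 2.104 to 3.00 for GPT2. In the triple mutant over wild type they ran from 0.54 to 0.87 for GBSS1 and 0.66 to 1.69 for GPT2, and over bpc4 bpc6 from -1.20 to -0.63 for GBSS1 and -1.89 to -0.86 for GPT2. Over lhp1-4 they ran from -0.12 to 0.19 for BAM3 and -1.01 to 0.0119 for GPT2. Interactions ran from -1.37 to -1.06 for BAM3, -2.06 to -1.49 for GBSS1 and -3.57 to -2.54 for GPT2. BAM5 in the triple mutant over bpc4 bpc6 kept its call in all 16 alternatives, among them the values as deposited, which hold the same values for BAM5.

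The replicate numbers share no stated origin, and the correlation of same-numbered deviations ran from -0.184 to 0.231 over 6 pairs of genotypes, so the replicate block was an alternative only; apart from the GPT2 interaction it changed no call of a member. Counts over all probe sets moved by more than 1.5 times as follows. Those of bpc4 bpc6 over wild type went from 410 to 762 with brighter probe sets and to 161 with array weights. They went to 0 with only the genotypes compared. They also moved without single arrays, except where wild type replicate 2 was left out. With only the genotypes compared, 5328 became 3369 in the triple mutant over wild type, 753 became 386 in the triple mutant over lhp1-4 and 1458 became 877 in bpc4 bpc6 over lhp1-4, where array weights gave 2766. Without single arrays the lowest counts were 289 of 1366 in lhp1-4 over wild type, 34 of 753 in the triple mutant over lhp1-4, 248 of 1458 in bpc4 bpc6 over lhp1-4, 2845 of 4863 in the triple mutant over bpc4 bpc6 and 23 of 529 interactions. With centring on the median the share of rises among calls went from 58.7% to 44.7% in lhp1-4 over wild type. With no minimum range the closest profile was another probe set for GBSS1 (r = 0.991) and GPT2 (r = 0.954). Neither the gene lists nor the promoter motifs could be run.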
